A study of Rattus norvegicus with 20 samples.

Results

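The microRNAs miR-201 and miR-547 of the rat are made from neighbouring hairpins on the X chromosome, and both arms of each hairpin have probes on the array used here. These 4 mature miRNAs, of 677 rat miRNAs on the array, were chosen by their array signal in all 4 groups: within the X-linked spermatogenesis cluster, miR-201 and miR-547 fell furthest between pachytene spermatocytes and round spermatids. That fall is therefore given below as a description, without a test. Germ cells came from male Sprague-Dawley rats gavaged with saline or with 6 mg/kg of cyclophosphamide, a DNA-alkylating anticancer drug, for 4 weeks, 6 days in each. Their pachytene spermatocytes (cells midway through the first meiotic prophase) and round spermatids (the haploid cells that meiosis leaves) were separated by sedimentation at unit gravity. Either cell type was taken from rats of either treatment, which makes 4 groups of 5 one-colour arrays, with 100 ng total RNA and the cells of 1 numbered rat on each array. The labels give no age for the rats.

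A miRNA is cut from a hairpin precursor, and either arm of the hairpin can be loaded into an Argonaute protein. Bases 2 to 8 of the mature strand, the seed, pair with target messenger RNAs, which are then repressed. The cluster on the X chromosome that holds miR-201 and miR-547 belongs to the fast-evolving miR-506 family, which in mouse is expressed mainly in the testis, including in pachytene spermatocytes, in which the sex chromosomes are otherwise largely silenced. In the RefSeq annotation of the rat genome build GRCr8 both hairpins lie on the minus strand of chromosome X, Mir201 at chrX:151711783-151711862 and Mir547 at chrX:151712081-151712161, 218 bases apart. The hairpins are shown because both arms of each were measured, with the mature arms that RefSeq annotates in capitals.
Mir201 hairpin: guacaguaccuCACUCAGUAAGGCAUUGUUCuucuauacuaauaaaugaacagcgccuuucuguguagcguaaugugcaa
Mir547 hairpin: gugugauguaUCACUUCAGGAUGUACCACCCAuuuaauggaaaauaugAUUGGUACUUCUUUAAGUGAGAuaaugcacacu

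The mature sequences of 3 of the 4 members were matched by name to RefSeq, and their seeds are in capitals to show which other miRNAs could share their targets.
rno-miR-201-5p, chrX:151711832-151711851, minus strand: cACUCAGUaaggcauuguuc
rno-miR-547-3p, chrX:151712092-151712113, minus strand: aUUGGUACuucuuuaagugaga
rno-miR-547-5p, chrX:151712130-151712151, minus strand: uCACUUCAggauguaccaccca
rno-miR-880-5p, chrX:150472827-150472847, minus strand: uACUCAGAuugguaugaguca
None of the 3 seeds was shared in full with any of the other mature rat miRNAs among the 693 in the RefSeq table. The sequence of rno-miR-880-5p, another arm of the X-linked cluster, is shown because it alone shared bases 2 to 7 with rno-miR-201-5p. It was at the floor on all 20 arrays, so the probes gave no level for it in any group.

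Signals below are the processed signal of the brighter probe of each miRNA, scaled to the 75th percentile of spots that were well above background on every array, floored at a scaled signal of 12.2 and put on the log2 scale, where the floor is 3.61. Between 181 and 281 miRNAs were detected per array, 18.9% to 31.4% of the miRNA spots were well above background, and no spot was saturated. The number of arrays and the brightness over background, not a read depth, limit the precision. The arrays lay on 3 slides: pachytene spermatocytes were on slides 1 and 2, and round spermatids were on all 3. Slide 3 alone was scanned on the second day, and its spike-in scale factors were 2.44 to 2.72, against 1.11 or less on the other slides. It held 3 of the 5 saline and 1 of the 5 cyclophosphamide spermatid arrays, and slide 1 held 1 and 3, so the drug comparison in spermatids was not balanced over slides. Germ cell signal was looked for with marker miRNAs of male germ cells in meiosis and after. Both cell types belong there, so these markers could not check an array's cell type or treatment label. In every group 5 of the 6 germ cell markers (the miR-34b, miR-34c and miR-449 arms) were detected on all arrays, and rno-miR-449c-5p was detected on no array of 3 of the groups.

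In pachytene spermatocytes of saline rats, rno-miR-201-5p had log2 signals of 7.15, 6.68, 7.39, 7.65 and 7.37 in rats 13, 16, 25, 26 and 28. In pachytene spermatocytes of cyclophosphamide rats, the log2 signals of rno-miR-201-5p were 6.78 in rat 7, 6.82 in rat 15, 7.51 and 7.66 in a pair of rats both numbered 16, and 7.82 in rat 29. The labels tell this pair apart only by a year beside the number, and they were counted as separate rats in the n of 5. In round spermatids its log2 signals were 4.90, 5.56, 5.71, 5.53 and 5.10 in saline rats 15, 16, 17, 25 and 28. The cyclophosphamide round spermatids had log2 signals of 5.10, 4.74, 5.23, 5.40 and 5.77 in rats 14, 15, 16, 25 and 26. The lowest spermatocyte array stood above the highest spermatid array in both treatments, while saline and cyclophosphamide arrays overlapped within each cell type. Group means on the log2 scale were 7.25 ± 0.36 (SD, n = 5) and 7.32 ± 0.48 (SD, n = 5) in saline and cyclophosphamide spermatocytes, against 5.36 ± 0.34 (SD, n = 5) and 5.25 ± 0.38 (SD, n = 5) in the matching spermatids.

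The 3p arm of the same hairpin, rno-miR-201-3p, was detected on all 10 spermatocyte arrays. Its log2 signals were 5.15, 4.68, 5.42, 5.65 and 5.43 in saline rats 13, 16, 25, 26 and 28, and 4.89, 4.90, 5.45, 5.51 and 5.74 in cyclophosphamide rats 7, 15, both numbered 16, and 29. All 10 spermatid arrays were at the floor, and on none of them was a majority of the 10 spots of the brighter probe well above background, although the scanner software called the miRNA detected on 2 of 5 arrays in each spermatid group. With this scaling and probe, the mean spermatocyte level was therefore at least 2.74-fold above the spermatid level in saline rats and at least 2.64-fold in cyclophosphamide rats. These bounds carry no interval, and they did not hold under another background correction (normexp). There the log2 difference, spermatids minus spermatocytes, was -0.0026 in saline and -0.61 in cyclophosphamide rats. The median of all tested miRNAs also moved with normexp, to 0.44 in saline and -0.04 in cyclophosphamide rats. Measured scaled signals were 39.4 ± 9.35 (SD, n = 5) against 8.52 ± 2.05 (SD, n = 5) in saline rats. In cyclophosphamide rats they were 40.5 ± 10.4 (SD, n = 5) against 8.16 ± 3.08 (SD, n = 5). Each bound sets the spermatocyte mean against, for each spermatid array, the higher of its lowest spot signal well above background and the probe's own signal.

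The pattern of rno-miR-547-3p was close to that of rno-miR-201-5p. In saline spermatocytes its log2 signals were 7.27, 6.79, 7.26, 7.55 and 7.32 in rats 13, 16, 25, 26 and 28. In cyclophosphamide spermatocytes they were 6.94, 6.93, 7.44, 7.63 and 7.60 in rats 7, 15, both numbered 16, and 29. In spermatids the log2 signals of rno-miR-547-3p were 5.28, 5.78, 5.61, 5.74 and 5.12 in saline rats 15, 16, 17, 25 and 28, and 5.52, 5.13, 5.51, 5.63 and 5.72 in cyclophosphamide rats 14, 15, 16, 25 and 26. The spermatocyte and spermatid arrays were again separate and the treatments again overlapped. The means were 7.24 ± 0.27 (SD, n = 5) and 7.31 ± 0.35 (SD, n = 5) in saline and cyclophosphamide spermatocytes, and 5.51 ± 0.29 (SD, n = 5) and 5.50 ± 0.22 (SD, n = 5) in the spermatids.

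The 5p arm of miR-547 was the dimmest member. In spermatocytes rno-miR-547-5p had log2 signals between 4.02 and 4.26 in saline rats and between 4.06 and 4.35 in cyclophosphamide rats. In spermatids 9 of the 10 arrays were at the floor, and the array of cyclophosphamide rat 26 read 3.81. Scaled signals were 17.5 ± 1.19 (SD, n = 5) in saline spermatocytes and 10.2 ± 1.32 (SD, n = 5) in saline spermatids, where 1 array had most of its spots well above background. In cyclophosphamide rats the level was, with this scaling, at least 1.21-fold higher in spermatocytes than in spermatids. Scaled signals there were 18.2 ± 1.44 (SD, n = 5) and 10.4 ± 2.11 (SD, n = 5). With normexp the log2 difference, spermatids minus spermatocytes, was -0.23 in cyclophosphamide rats and reversed to 0.44 in saline rats. The median of all tested miRNAs with normexp was -0.04 in cyclophosphamide and 0.44 in saline rats.

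**Figure D1:**
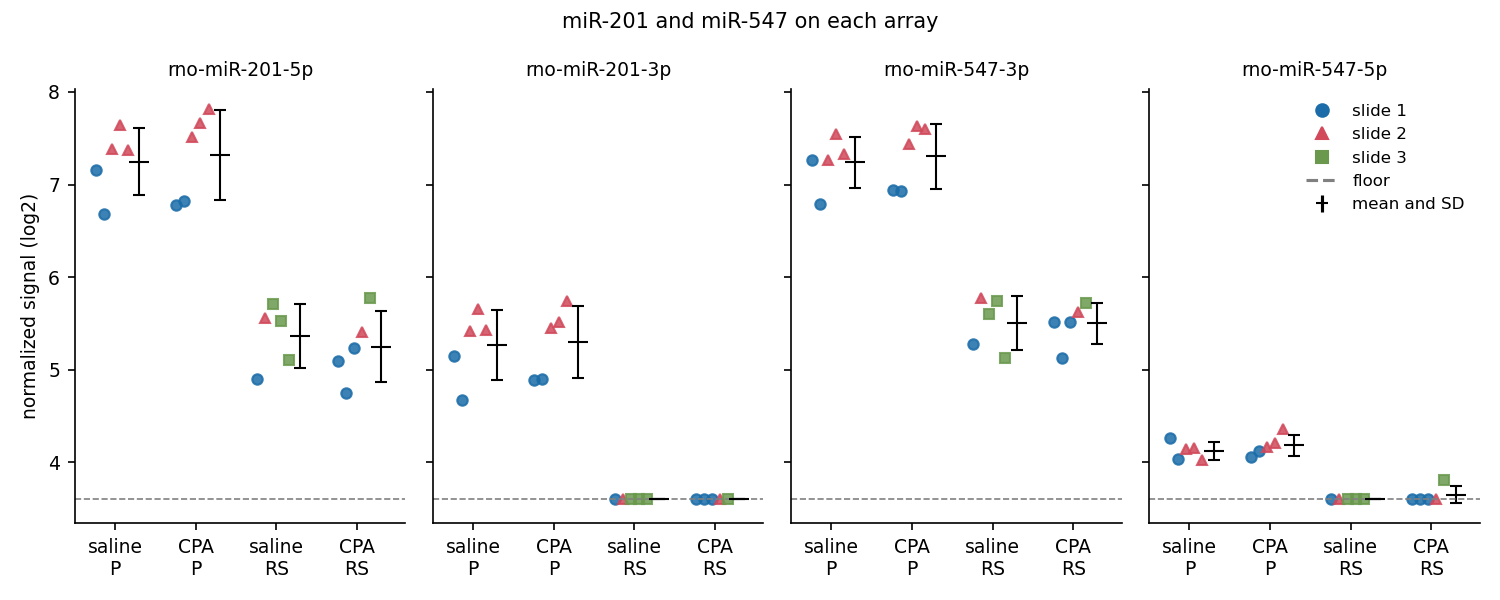
Normalized signal (log2, vertical axis) of the 4 miRNAs on each of 20 arrays, by group (P, pachytene spermatocytes; RS, round spermatids; CPA, cyclophosphamide). Points are arrays with the symbol of their slide, black bars are the mean and SD of 5 arrays, and the dashed line is the floor at 3.61; every spermatocyte point of rno-miR-201-5p and rno-miR-547-3p lies above every spermatid point.

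The fall from spermatocytes to spermatids chose these miRNAs, so its size is given without a test. On the log2 scale rno-miR-201-5p fell by 1.89 ± 0.24 (SE) in saline rats, a 3.70-fold difference, and fell by 2.07 ± 0.24 (SE) in cyclophosphamide rats, a 4.20-fold difference. The fall of rno-miR-547-3p was 3.32-fold in saline and 3.50-fold in cyclophosphamide rats. Among the 144 tested miRNAs above the floor on all 20 arrays, rno-miR-201-5p had rank 2 by size of fall in saline rats and rank 1 in cyclophosphamide rats, and rno-miR-547-3p had rank 4 in both. The second, dimmer probe of rno-miR-547-3p had most of its spots well above background on 19 of 20 arrays, and its mean scaled signal was 74.6 ± 18.8 (SD, n = 5) in saline spermatocytes and 21.1 ± 3.45 in saline spermatids, and 80.1 ± 21.3 and 19.8 ± 4.60 in the cyclophosphamide cells. The dimmer probe of rno-miR-201-5p had most of its spots well above background on 9 arrays, so no ratio is given for it. Within slide 1, which held both cell types, rno-miR-201-5p was lower in spermatids by a log2 difference of -2.01 in saline and -1.78 in cyclophosphamide rats, and within slide 2 by -1.91 and -2.26. The saline spermatids of slide 1, and the spermatids of either treatment on slide 2, were 1 array each.

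The size of this fall depended on the scaling and the background correction. When the labelling spike-ins set the scale, the log2 difference of the median tested miRNA became -1.56 in saline and -0.68 in cyclophosphamide rats, and that of rno-miR-201-5p became -3.78 and -2.9985. With normexp background correction and its offset, the log2 difference of rno-miR-201-5p was -0.79 in saline and -1.19 in cyclophosphamide rats. That of the median tested miRNA was then 0.44 and -0.04.

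Markers of other cells moved with the cell type. The summed scaled signal of 9 mesenchymal, muscle and endothelial miRNAs was 561 to 1504 on spermatocyte arrays and 1975 to 3816 on spermatid arrays, and that of 6 blood cell miRNAs was 70.0 to 117 against 149 to 219. The 5 spermatogonial miRNAs summed to 1234 to 1368 on spermatocyte arrays and to 958 to 1220 on spermatid arrays. Within that list rno-miR-221-3p had log2 differences, spermatids minus spermatocytes, of -1.64 in saline and -1.71 in cyclophosphamide rats. Those of rno-miR-222-3p were -1.44 and -1.59. The differences of rno-miR-221-3p are limited by the floor on some spermatid arrays. This pair was named for profiles near those of the members and does not stand for the list. The mean sum of all 5 was 1319 in saline spermatocytes against 1084 in saline spermatids. In cyclophosphamide rats it was 1287 against 1135. The other listed miRNAs are given only in the sum. The 4 Sertoli cell miRNAs overlapped at 359 to 487 and 251 to 590. Of the 6 blood cell miRNAs, 3 were detected on all arrays of each group except cyclophosphamide spermatids, where 2 were. In the same list rno-miR-144-3p of red cells was detected on no array of any group, and rno-miR-451-5p was detected in saline spermatids only. The part of these cells in the fall was not tested, and in bulk RNA fewer cells of a type and less RNA per cell cannot be told apart.

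The X-linked cluster was followed through 27 arms on the array, the 4 members and 23 others, of which 19 others passed the detection filter. Beside the members, 8 of the 19 were lower and 2 higher in spermatids of saline rats, and 9 were lower and 2 higher in cyclophosphamide rats, by limma's moderated test with Benjamini-Hochberg adjustment over 217 miRNAs. In the same fits 21.7% of all tested miRNAs were lower in saline and 22.6% in cyclophosphamide rats. The median log2 difference of the 19 arms was -0.24 in saline and -0.26 in cyclophosphamide rats, against 0.02 and 0.06 over all tested miRNAs. These counts come from the contrast that chose the members, and the 2 contrasts use separate arrays.

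The members were chosen for the largest falls of this cluster, so their first places in the order below were set by that choice. Ordered by the mean of the 2 falls, rno-miR-201-5p, rno-miR-547-3p and rno-miR-201-3p took the first 3 places of the cluster with mean log2 differences of -1.98, -1.77 and -1.68, the last one limited by the floor. Just below them came rno-miR-465-3p at -0.67, rno-miR-471-3p at -0.62 and rno-miR-463-3p at -0.59. The member rno-miR-547-5p, whose difference was also limited by the floor, stood at -0.53 between rno-miR-463-3p and rno-miR-742-3p, the latter at -0.52, followed by rno-miR-743a-5p at -0.51 and rno-miR-743a-3p at -0.49. At the other end, rno-miR-742-5p and rno-miR-883-5p were higher in spermatids, with mean differences of 0.26 and 0.28. The 3p arms of the same hairpins, rno-miR-742-3p and rno-miR-883-3p, had mean differences of -0.52 and -0.17.

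The placement of the hairpins divides the cluster. In GRCr8, Mir201 and Mir547 lie with Mir3585 and Mir509 in a block of 4 hairpins that spans 26.2 kb on the side of Fmr1, while 11 other hairpins of the cluster, Mir743b to Mir465, form a block of 43.7 kb that starts 1224 kb from Mir201, on the side of Slitrk2. All 15 hairpins are on the minus strand. The array has no probe row for miR-509, but rno-miR-3585-5p, whose hairpin is 4957 bases from Mir201, was detected on all 20 arrays. In spermatocytes this neighbour read 7.30 ± 0.30 (SD, n = 5) on the log2 scale with saline and 7.39 ± 0.42 (SD, n = 5) with cyclophosphamide, against 5.68 ± 0.27 (SD, n = 5) and 5.52 ± 0.38 (SD, n = 5) in spermatids. This is a fall of 3.07-fold in saline and 3.66-fold in cyclophosphamide rats, beside 1.52-fold and 1.68-fold for rno-miR-465-3p of the other block. The 4 members were chosen for their falls, so their difference from the other block was in part set by that choice. The neighbour rno-miR-3585-5p was not chosen by that rule, but it was named for a profile near theirs. The 3p arm, rno-miR-3585-3p, was at the floor in every group.

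**Figure D2:**
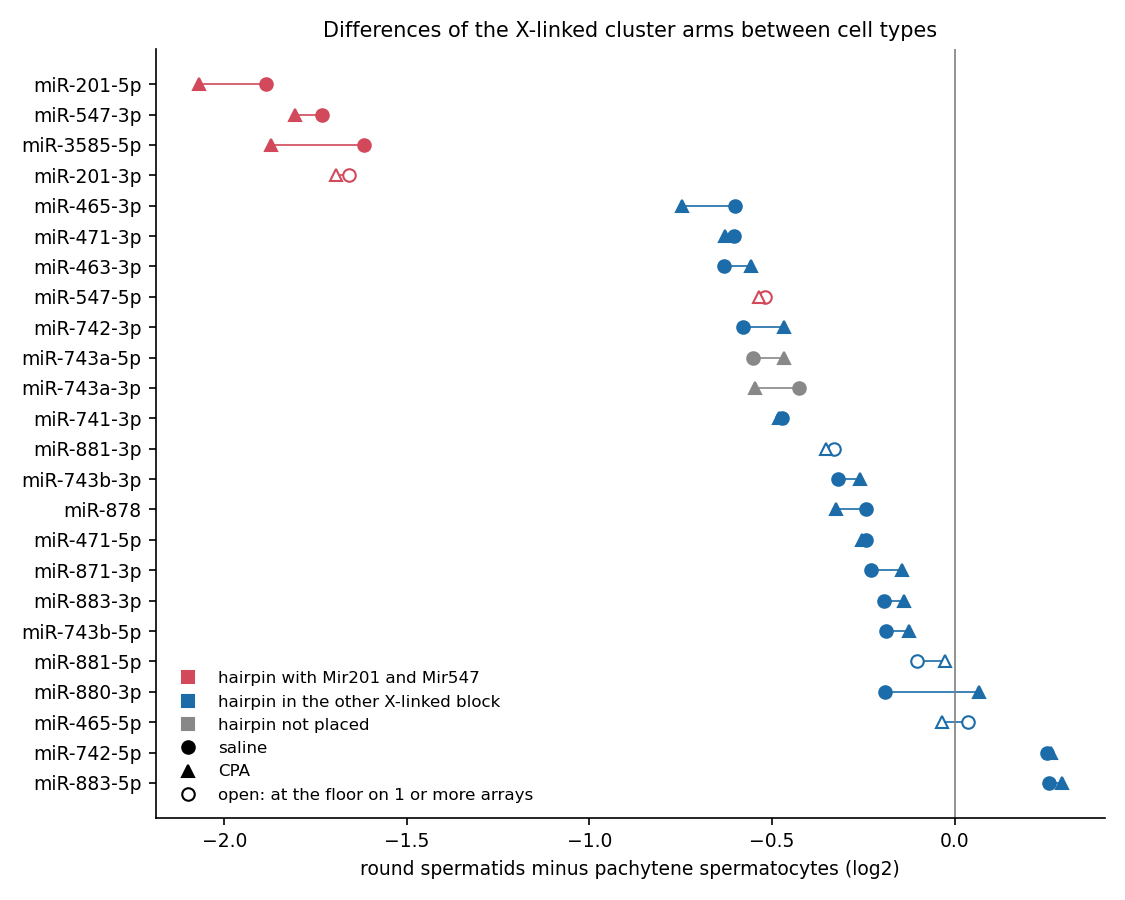
Difference between round spermatids and pachytene spermatocytes (log2, horizontal axis) for each tested arm of the X-linked cluster and for rno-miR-3585-5p, ordered by the mean of both treatments, with circles for saline and triangles for cyclophosphamide (CPA). Red arms come from the block of Mir201 and Mir547, and blue ones from the other block. The hairpin of the grey miR-743a arms was not placed, and open symbols were at the floor on 1 or more arrays. Of the 5 red arms 4 lie below -1.6, and none of the other arms lies below -0.75. The 4 members among the red arms were chosen for their falls, and only rno-miR-3585-5p was not chosen by that rule.

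The profiles most like those of the members were named by the root-mean-square difference of log2 profiles, each centred on its own mean over the 20 arrays. The nearest miRNA outside the members was rno-miR-3585-5p both for rno-miR-201-5p, at a distance of 0.15, and for rno-miR-547-3p, at 0.12. For comparison, rno-miR-201-5p and rno-miR-547-3p were 0.18 apart, and the median distance of rno-miR-201-5p to all other tested miRNAs was 1.104. Next to rno-miR-201-5p came rno-miR-221-3p at 0.20 and rno-miR-34a-5p at 0.27, and next to rno-miR-547-3p came rno-miR-221-3p at 0.16 and rno-miR-138-5p at 0.19. The neighbours of rno-miR-201-3p, whose profile is floored in spermatids, were rno-miR-138-5p at 0.13, rno-miR-222-3p at 0.16 and rno-miR-221-3p at 0.18. Those of rno-miR-547-5p, whose profile is floored on most spermatid arrays, were rno-miR-741-3p and rno-miR-103-3p, both at 0.09, and rno-miR-743a-5p at 0.09. Both rno-miR-221-3p and rno-miR-222-3p are also on the list of spermatogonial markers. On the spermatid arrays of saline rats 15 and 28 and cyclophosphamide rats 14 and 15, rno-miR-221-3p was at the floor, which limits its distances. The distances are descriptions over arrays that share slides and a large difference between cell types, and they carry no test.

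**Figure D3:**
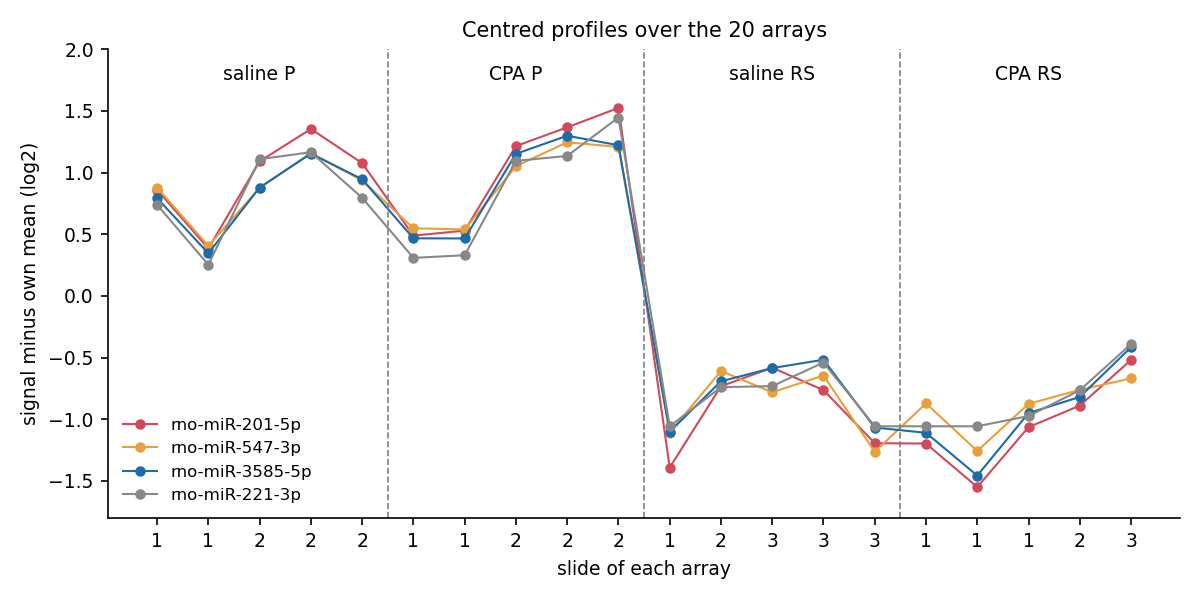
Log2 signal minus each miRNA's own mean over the 20 arrays (vertical axis), with the arrays ordered by group and then slide (horizontal axis, slide numbers), for rno-miR-201-5p, rno-miR-547-3p and their near profiles rno-miR-3585-5p and rno-miR-221-3p. The lines drop together from spermatocytes (P) to round spermatids (RS) and rise together from slide 1 to slide 2 within spermatocytes. The line of rno-miR-221-3p is that of a listed spermatogonial marker and is limited by the floor on some spermatid arrays.

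Whether cyclophosphamide changed these miRNAs is the question the treatment poses. The rule that chose the members used the fall between cell types and not the drug contrasts, though earlier results of these data were known. In pachytene spermatocytes none of the 4 members passed limma's test, as for all 217 tested miRNAs (0% called, with 1 at an unadjusted p under 0.05). The log2 difference, cyclophosphamide minus saline, was 0.07 for rno-miR-201-5p (95% interval -0.44 to 0.58, limma adjusted p = 1), 0.03 for rno-miR-201-3p (-0.31 to 0.38), 0.07 for rno-miR-547-3p (-0.30 to 0.44) and 0.06 for rno-miR-547-5p (-0.07 to 0.18). As ratios, the interval of rno-miR-201-5p ran from 0.739 to 1.49 and that of rno-miR-547-5p from 0.953 to 1.13. This fit held no term for slide, and under it the arrays left room for a change of rno-miR-201-5p of up to 1.49-fold. The interval of rno-miR-547-5p was narrower, and its probe was dim and close to the floor.

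In round spermatids the called share was also 0%, and the 4 miRNAs whose unadjusted p lay under 0.05 were outside the X-linked cluster. There rno-miR-201-5p differed by -0.11 on the log2 scale (95% interval -0.62 to 0.40, limma adjusted p = 0.941). The difference of rno-miR-547-3p was -0.0054 (95% interval -0.38 to 0.37, limma adjusted p = 1). The arm rno-miR-201-3p was at the floor on all 10 spermatid arrays and rno-miR-547-5p on 9 of them, so their order between treatments is not given. The test of the difference between the drug effects, spermatids minus spermatocytes, called 0% of miRNAs, with 1 at an unadjusted p under 0.05. It gave -0.18 for rno-miR-201-5p (95% interval -0.90 to 0.53) and -0.07 for rno-miR-547-3p (-0.60 to 0.45), both with a limma adjusted p of 1. The sign of each of these small differences turned under other settings, slide as a block in spermatids among them, where rno-miR-201-5p became 0.15 (limma adjusted p = 0.889).

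Over the other 19 tested arms of the cluster, the median drug difference was 0.03 in spermatocytes and 0.07 in spermatids on the log2 scale, with single arms between -0.13 and 0.21 and between -0.06 and 0.27, and none was called. The median over all tested miRNAs was 0.0022 in spermatocytes and 0.04 in spermatids. The neighbour rno-miR-3585-5p differed by 0.10 in spermatocytes and by -0.16 in spermatids.

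Arm use was compared between treatments in spermatocytes, the one cell type in which both arms of each hairpin were detected on all arrays. The log2 difference between the arms, 5p minus 3p, depends on the probes, so the change of that difference with treatment is given. For miR-201 it was 0.04 from saline to cyclophosphamide (exact two-sided permutation test over 252 splits, p = 0.476, adjusted p = 0.937 over 2 tests). For miR-547 it was -0.012 (exact permutation p = 0.937, adjusted p = 0.937). The arm difference of miR-201 had an SD of 0.03 over the 5 saline and 0.11 over the 5 cyclophosphamide arrays, and the single arms had SDs of 0.36 and 0.37 over the saline arrays. For miR-547 the SD of the arm difference was 0.25 in saline and 0.27 in cyclophosphamide rats. Its 5p arm was dim and close to the floor, with SDs of 0.097 and 0.11, against 0.27 and 0.35 for its 3p arm. The test for miR-547 therefore says little about a change of the 5p arm.

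Within spermatocytes, the members were also compared between slides. Slides 1 and 2 each held spermatocyte arrays of both treatments, 4 and 6 in all, and the fit held a term for the drug; this comparison was added after the values were seen. The log2 signal of rno-miR-201-5p was 6.68 to 7.15 on slide 1 and 7.37 to 7.82 on slide 2, without overlap. Its difference, slide 2 minus slide 1, was 0.71 ± 0.14 (SE), a 1.63-fold difference (limma adjusted p = 0.00341). For rno-miR-201-3p the ranges were 4.68 to 5.15 and 5.42 to 5.74, and the difference was 0.63 ± 0.08 (SE, limma adjusted p = 0.000254), the smallest adjusted p of all 217 miRNAs. For rno-miR-547-3p the ranges touched, at 6.79 to 7.27 and 7.26 to 7.63, with a difference of 0.49 ± 0.13 (SE, limma adjusted p = 0.0225). The fourth member, rno-miR-547-5p, differed by 0.05 ± 0.06 (SE, limma adjusted p = 0.688).

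Higher signals on slide 2 were called for 3 of the 4 members, beside 8.29% of all tested miRNAs and 5 of the 19 other cluster arms. Among the spermatocyte arrays no cluster arm was called lower on slide 2, while 18 of the 217 miRNAs were. The neighbour rno-miR-3585-5p was also higher on slide 2, by 0.59 (limma adjusted p = 0.00793). In the other block the called arms included rno-miR-878 with 0.58 and rno-miR-465-3p with 0.48. Each slide carried different rats, so slide and rat cannot be told apart. Without cyclophosphamide rat 7, cyclophosphamide rat 15, cyclophosphamide rat 29 or saline rat 16, the call of rno-miR-547-3p was lost, with limma adjusted p between 0.0527 and 0.102. With normexp no miRNA was called between the slides, and rno-miR-201-3p reversed to -0.28; in the deposited value table rno-miR-201-5p (limma adjusted p = 0.0603) and rno-miR-547-3p (limma adjusted p = 0.0853) were not called, and rno-miR-201-3p was not called on the total gene signal (limma adjusted p = 0.0528).

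Marker lists moved between the same slides in spermatocytes. The 6 germ cell markers summed to 20910 to 24230 on slide 1 and to 15564 to 18449 on slide 2, without overlap, and the 6 blood cell markers to 112 to 117 and 70.0 to 109. The sums of the mesenchymal, muscle and endothelial list overlapped, at 713 to 1025 and 561 to 1504. Those of the spermatogonial list, at 1247 to 1368 and 1234 to 1343, and of the Sertoli list, at 359 to 419 and 386 to 487, overlapped too. Their part in the slide difference was not tested.

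In round spermatids rno-miR-201-5p was again lowest on slide 1, at 4.74 to 5.23, against 5.40 to 5.56 on the 2 arrays of slide 2 and 5.10 to 5.77 on slide 3. Slide 3 minus slide 1 was 0.60 ± 0.17 (SE, limma adjusted p = 0.0205), where 6.45% of all tested miRNAs were called higher. Slide 3 and the second scan day are the same arrays, so slide and scan day cannot be told apart here. Slide 2 minus slide 1 was 0.52 ± 0.19 (SE, limma adjusted p = 0.101). The slide 3 call was lost without cyclophosphamide rat 26 (limma adjusted p = 0.222) or saline rat 15 (limma adjusted p = 0.0865), with the mean over both probes (limma adjusted p = 0.16) and with normexp, and with spike-ins the difference reversed to -0.72 (limma adjusted p = 0.0361). For rno-miR-547-3p slide 3 minus slide 1 was 0.23 ± 0.16 (SE, limma adjusted p = 0.383).

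**Figure D4:**
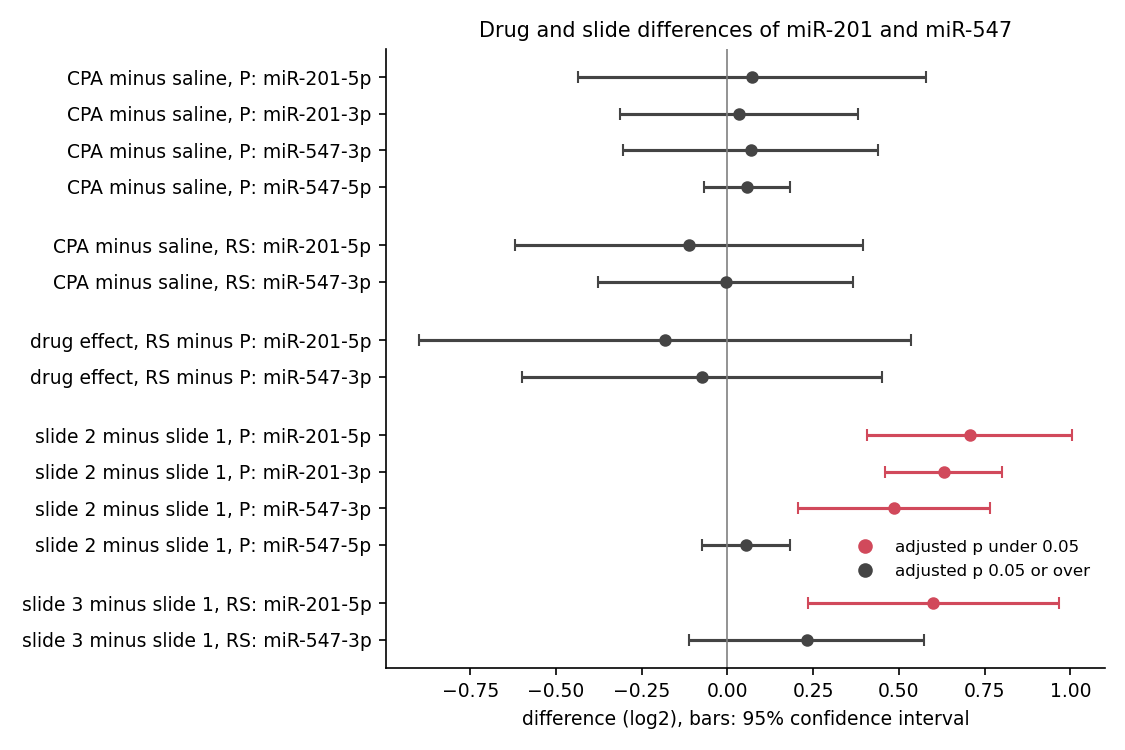
Differences of the members on the log2 scale (horizontal axis) with 95% confidence intervals, for the drug in spermatocytes (P) and round spermatids (RS), for the difference of the drug effects and for slides; members at the floor in round spermatids are left out there. All drug intervals include 0, and red points mark limma adjusted p under 0.05, which 3 spermatocyte and 1 spermatid slide difference reached.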

How the data were processed

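Per the labels' protocols, 100 ng of total RNA per sample was labelled with Cy3 and hybridised to 1-colour Agilent miRNA arrays, and per the submitters' processing notes the scans were read with Agilent Feature Extraction 11.5.1.1. The deposited intensity values (processed signals, background-subtracted per the file headers) were used from 20 arrays. Each array was scaled to the 75th percentile of the 2176 spots well above background on all arrays. Spots of a probe were averaged without outlier flags, floored at 12.2 and put on the log2 scale, and the brightest probe stood for a miRNA. A miRNA was tested if every array of 1 or more groups detected it, which 217 of 677 did, and these were fitted with limma 3.58.1 in R 4.3.3 as 4 group means, with Benjamini-Hochberg adjustment at 0.05. The deposited series table of log2 values, centred on each row's median, with column medians from -0.12 to 0.40 and an unstated scaling between arrays, was an alternative. There 177 rows were matched to miRNAs by name and then by a high correlation with the total gene signal of the same arrays. Rows that correlated less were left out, so a likeness to the scanner values was in part set by the matching. No row was matched to rno-miR-201-3p. The columns named for normexp were not in the files, so it used the median signals with an offset of 50. Scaling, background, probe, floor, filter, slide, scan day, rat number and left-out arrays were varied. The miRNAs named are the 4 members, the X-linked cluster arms next to them in the order of falls, the 3 nearest profiles of each, and markers. Others were named after their values were seen: rno-miR-3585-3p, rno-miR-880-5p, rno-miR-742-5p, rno-miR-883-5p, rno-miR-883-3p and rno-miR-878. Members and lists were chosen with earlier results of these data known. Sequences and positions are from RefSeq, build GRCr8. The labels give each array a rat number, and p-values measure the spread between these samples.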

Additional observations from a re-analysis of the deposited data

How the results depend on the processing

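Of the members' drug differences none passed limma's threshold under any alternative, but their signs were not stable. With labelling spike-ins the spermatocyte log2 differences were -0.36 for rno-miR-201-5p, -0.39 for rno-miR-201-3p, -0.36 for rno-miR-547-3p and -0.37 for rno-miR-547-5p, while the median of all tested miRNAs was -0.40. In spermatids they were 0.42 for rno-miR-201-5p and 0.53 for rno-miR-547-3p (all miRNAs 0.44), and the differences of the drug effects were 0.78 and 0.89 (all miRNAs 0.89). Within slide 1 the spermatocyte differences, in the same order of members, were -0.11, -0.018, -0.098 and -0.061, those of rno-miR-201-5p and rno-miR-547-3p in spermatids 0.12 and 0.11, and the differences of effects 0.23 and 0.20. Within slide 3 these 2 members had spermatid differences of 0.33 and 0.23, and 4 miRNAs were called, against 0 in the fit of all arrays. With slide as a block the spermatid differences were 0.15 and 0.10 and the differences of effects 0.077 and 0.032, and with scan day as a block the spermatid differences were 0.046 and 0.029. In spermatocytes rno-miR-201-3p became -0.025 with the percentile over all probes and -0.0034 with quantile normalization, and rno-miR-547-5p became -0.0028, -0.016 and, in the deposited value table, -0.083. Leaving out 1 array at a time gave -0.071 to 0.21 for rno-miR-201-5p, -0.11 to 0.14 for rno-miR-201-3p and -0.044 to 0.16 for rno-miR-547-3p in spermatocytes. In spermatids it gave -0.24 to 0.015 for rno-miR-201-5p and -0.10 to 0.087 for rno-miR-547-3p, and -0.17 to 0.038 for the difference of effects of the latter. The arm difference of miR-547 ran from -0.092 to 0.078.

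The falls of rno-miR-201-5p and rno-miR-547-3p kept their direction under every alternative. With spike-ins the log2 differences of rno-miR-201-5p, rno-miR-201-3p, rno-miR-547-3p and rno-miR-547-5p were -3.78, -2.58, -3.62 and -1.44 in saline and -2.9985, -2.17, -2.73 and -1.07 in cyclophosphamide rats, and 185 miRNAs were called in saline rats instead of 103. With normexp, under which the saline median of all miRNAs was 0.44 against 0.02, they were -0.79, -0.0026, -0.73 and 0.44 in saline and -1.19, -0.61, -1.07 and -0.23 in cyclophosphamide rats, with 30 and 38 calls instead of 103 and 112. With the mean over both probes rno-miR-201-5p had -1.41 and -1.54, rno-miR-201-3p -0.83 and -0.85, and rno-miR-547-5p -0.26 and -0.27. The arms at the floor moved with the floor: rno-miR-201-3p had -2.21 and -2.35 with a lower floor and -2.88 and -2.78 with the total gene signal, and rno-miR-547-5p had -0.79 and -0.82, then -1.78 and -1.84. With the percentile over all probes rno-miR-547-5p had -0.66 and -0.64, with quantile normalization -0.66 in saline rats, and in the deposited value table -3.99 and -4.79. Within slide 1 rno-miR-201-3p had -1.31 and -1.29, and within slide 2 it had -1.96 and rno-miR-547-5p -0.64 in cyclophosphamide rats. The saline spermatids of slide 1 and the cyclophosphamide spermatids of slide 2 were 1 array each.

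Between slides 1 and 2 in spermatocytes 36 miRNAs were called, 14 with the total gene signal, 7 in the deposited value table, 0 with normexp and 17 to 34 without 1 array. The count fell to 20 without cyclophosphamide rat 7 or 29, 19 without cyclophosphamide rat 15 and 17 without saline rat 16. With normexp rno-miR-201-3p was -0.28 and rno-miR-547-5p -0.65. Between slides 1 and 3 in spermatids 41 were called, 153 with spike-ins, 1 with normexp and 25 to 50 without 1 array, the lowest without cyclophosphamide rat 26. With spike-ins rno-miR-201-5p was -0.72 and rno-miR-547-3p -1.09. The cause of these changes was not tested. With the rat number within treatment as a random replicate block, 105 and 113 miRNAs were called between cell types, and no call on a member changed. The labels do not say that equal numbers in both cell types are 1 animal, and correlations of the same-numbered arrays' deviations ran from -0.29 to 0.16. Precision is limited by 5 arrays a group and, for rno-miR-201-3p and rno-miR-547-5p in spermatids, by signals near background.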
